A study of Homo sapiens with 6 samples.

Results

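The genes described here encode the enzymes and core partners of 2 chromatin systems, DNA methylation and Polycomb repressive complex 2 (PRC2). The members, chosen by gene symbol, were *DNMT1*, *DNMT3A*, *DNMT3B*, *UHRF1*, *TET1*, *TET2*, *TET3*, *EZH1*, *EZH2* and *SUZ12*, which are 10 of the 58735 genes in the deposited table. Their mRNA was measured by RNA sequencing in 6 libraries, 3 of uninfected TPC-1 cells (the wild strain) and 3 of *RRM2*-OE-TPC-1 cells, and the comparison asked how these genes were expressed when *RRM2*, the small subunit of ribonucleotide reductase, was overexpressed. Both groups are TPC-1, a line grown from a human papillary carcinoma of the thyroid. *RRM2*-OE-TPC-1 cells also carry a lentiviral LV18 vector with full-length *RRM2* under a CMV promoter and were selected with puromycin. The control cells were not infected, so that effects of infection or selection and effects of *RRM2* cannot be told apart. The genotype field of *RRM2*-OE-TPC-1 libraries 2 and 3 names RRM3 and RRM4, but *RRM2* stands in their titles. The methods call the replicates biological but do not say whether they were separate cultures, and the p-values measure the spread between these libraries.

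DNA methyltransferases add a methyl group to cytosine, mostly where a guanine follows. *DNMT1* copies the pattern onto the new strand after replication, guided by *UHRF1*, while *DNMT3A* and *DNMT3B* methylate new sites and the TET dioxygenases oxidize the mark so that it can be removed. PRC2 methylates H3K27, the lysine residue of histone H3 that marks silenced genes, through its catalytic subunit EZH2 or EZH1, which needs SUZ12 and EED to be active, and EZH2 is typical of dividing cells.

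The values were FPKM, fragments scaled to gene length and sequencing depth, so that levels can be compared between genes. Between 14317091 and 17084067 reads lay on genes in each library. *RRM2*-OE-TPC-1 replicate 1 stood further from its group than any other library, with a chi-square per degree of freedom of 5.02 and 5.68 against replicates 2 and 3, which gave 1.81 between themselves, whereas the pairs of TPC-1 gave 2.92 to 3.08. A gene was tested with limma on log2(FPKM + 0.1) if it had at least 0.5 FPKM and 10 reads in at least 3 libraries, which 13621 genes had. It was called at an adjusted p of 0.05 or less (Benjamini-Hochberg over all genes tested), and a stricter rule also asked for a log2 fold change of at least 1 in size. *RRM2* itself measured 9.17, 9.05 and 8.52 FPKM in the control libraries and 50.4, 47.5 and 47.2 FPKM where it was overexpressed. Its 5.42-fold difference (log2 fold change 2.43, SE 0.0442, limma adjusted p = 1.11e-08) went with the labels. Of the thyroid markers, *PAX8* averaged 69.3 FPKM in TPC-1 and 58.5 FPKM in *RRM2*-OE-TPC-1, *FOXE1* 4.30 and 3.19 FPKM and *HHEX* 2.47 and 4.61 FPKM, while *TG* and *TSHR* were at 20 reads or fewer, and *NKX2-1* was at 0 in all 6 libraries. The summed level of the 7 thyroid markers ranged from 73.9 to 77.8 FPKM in TPC-1 and from 64.2 to 67.5 FPKM in *RRM2*-OE-TPC-1. The 5 epithelial markers summed to between 42.8 and 47.1 FPKM in TPC-1 and to between 88.3 and 90.7 FPKM in *RRM2*-OE-TPC-1. Most of this was *KRT18*, which averaged 41.2 FPKM in TPC-1 and 85.2 FPKM in *RRM2*-OE-TPC-1. *KRT8* averaged 2.56 and 3.48 FPKM, and *KRT7*, which was not called, 1.18 and 1.01 FPKM. *KRT19* and *EPCAM* were at 5 reads or fewer. Leukocyte markers were at 1 read or fewer in each library, with *CD3E* at 0. Of the fibroblast markers *COL1A2* and *DCN* were at 0, and the 5 summed to between 2.78 and 3.16 FPKM over both groups. Most of this was *PDGFRB*, which averaged 2.12 FPKM in TPC-1 and 2.37 FPKM in *RRM2*-OE-TPC-1 and was not called. *COL1A1* was called lower, at 0.816 and 0.501 FPKM, and *LUM* was at 5 reads or fewer. The 3 endothelial markers summed to between 0.873 and 1.05 FPKM in TPC-1 and to between 0.0667 and 0.115 FPKM in *RRM2*-OE-TPC-1. In TPC-1 nearly all of this was *PECAM1*. It averaged 0.924 FPKM in TPC-1 and 0.0588 FPKM in *RRM2*-OE-TPC-1 and was called lower (log2 fold change -2.71, limma adjusted p = 2.35e-05). In *RRM2*-OE-TPC-1 it was at 12 reads or fewer, and *VWF* was at 7 reads or fewer. The part of these markers in the results below was not tested.

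Of the 10 members, 9 passed the filter, each with 0.5 FPKM or more in all 6 libraries, and *TET1* did not. At an adjusted p of 0.05 or less, *UHRF1*, *DNMT1* and *EZH2* were called higher in the overexpressing cells, and *DNMT3B*, *DNMT3A*, *EZH1*, *TET2* and *TET3* were called lower. That is 8 of 9 members, where 67.6% of all genes tested were called. The 3 higher members stand beside 34.9% of all genes called higher, and the 5 lower members beside 32.7% called lower. Only *UHRF1*, which was higher, also passed the stricter rule, which 11.5% of all genes passed, 4.48% of all being higher and 6.97% lower. In 8 of 9 members the groups did not overlap, against 72.2% of all genes. Without *RRM2*-OE-TPC-1 replicate 1 the counts were also 3 higher, 5 lower and 1 past both thresholds. The median log2 fold change of the 9 members was -0.25, whereas that of all genes tested was 0.011. Because each library pools many cells, fewer cells that carry a transcript and less of it per cell cannot be told apart.

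**Figure D1:**
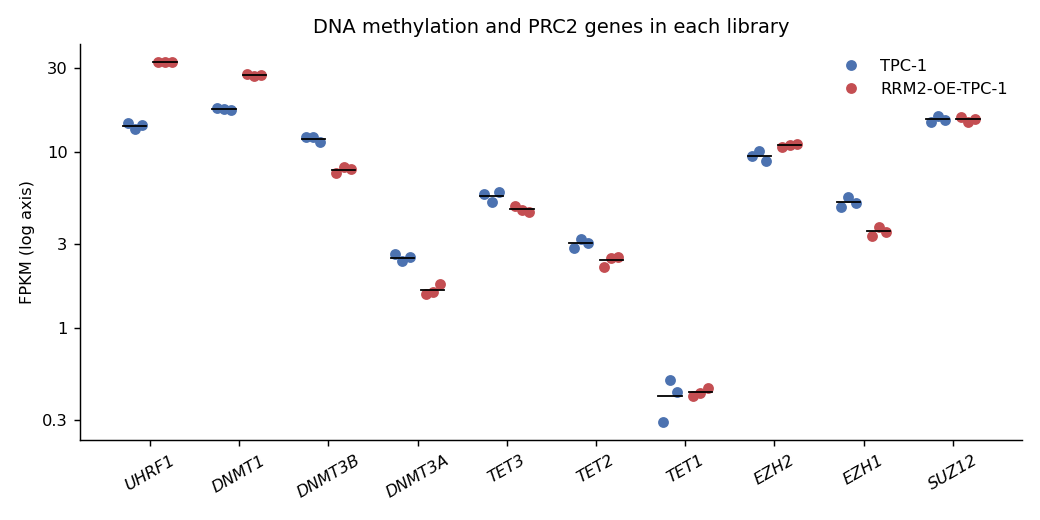
FPKM of the 10 genes in each library, on a log axis, with 3 TPC-1 libraries in blue and 3 *RRM2*-OE-TPC-1 libraries in red and a bar at each group mean. *UHRF1*, *DNMT1* and *EZH2* lie higher in *RRM2*-OE-TPC-1, 5 genes lie lower, and the groups overlap for *SUZ12* and *TET1*.

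The promoters of 4 members are shown, those of *UHRF1* and *DNMT1*, the maintenance factors that both rose, and those of the paralogs *EZH2* and *EZH1*, which moved in opposite directions. The sequences are RefSeq's on GRCh38.p14, read 5′ to 3′ on the strand of the gene, and cover the 120 bases before the annotated start and the first 10 bases from it. Capitals mark the letters searched for as E2F motifs, where E2F proteins are the transcription factors that switch on genes for S phase.
UHRF1, chr19:4909381-4909510, plus strand: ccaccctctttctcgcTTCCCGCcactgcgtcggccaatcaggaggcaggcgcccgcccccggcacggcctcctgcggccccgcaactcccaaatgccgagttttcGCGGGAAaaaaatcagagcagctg
DNMT1, chr19:10194944-10195073, minus strand: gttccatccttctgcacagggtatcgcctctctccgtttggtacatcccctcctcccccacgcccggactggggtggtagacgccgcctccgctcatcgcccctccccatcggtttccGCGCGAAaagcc
EZH2, chr7:148884282-148884411, minus strand: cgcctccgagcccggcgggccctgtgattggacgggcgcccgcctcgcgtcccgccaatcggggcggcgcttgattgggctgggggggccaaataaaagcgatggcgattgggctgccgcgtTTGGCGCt
EZH1, chr17:42745031-42745160, minus strand: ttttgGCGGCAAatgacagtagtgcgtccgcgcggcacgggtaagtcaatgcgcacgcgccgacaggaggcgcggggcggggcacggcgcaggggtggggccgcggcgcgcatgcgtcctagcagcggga

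The letters searched were TTCCCGC and its variants TTGGCGC, also TTCGCGC, and lastly TTGCCGC, all on either strand, over windows from 250 bases before to 50 bases after each start. RefSeq gave 22 such windows for the 10 members. The letters were found in 31.8% of these windows, against 13.0% of all 35116 windows. Windows of the same gene can overlap, as in *DNMT3A*. The 7 windows with a match belong to 6 members, *UHRF1*, *DNMT1*, *EZH2*, *EZH1*, *SUZ12* and *TET3*. These 6 genes include members called higher (*UHRF1*, *DNMT1*, *EZH2*), called lower (*EZH1*, *TET3*) and not called (*SUZ12*). The first *UHRF1* window held 2 matches, which start 104 and 14 bases before the start site. A second motif of cell cycle genes, the letters TTTGAA or TTCGAA on either strand, was found in 3 windows, of *DNMT3A*, *SUZ12* and *TET2*, against 16.4% of all windows. Members' windows held many CG dinucleotides, with a median observed to expected ratio of 0.822 against 0.579 over all windows, and 72.7% of them exceeded 0.6 against 48.8% of all. The single *DNMT3B* window was at 0.118, but its start lies 17467 bases inside the gene model of the deposited table. The start of that gene model was not examined. The median share of G and C bases was 73.5% in the members' windows against 58.7% over all windows. The letters searched as E2F motifs are rich in G and C, and the part of base content in their count was not tested. A match of letters is a description and no site of binding. For *DNMT1* the RefSeq start lies 36333 bases inside the gene model of the deposited table, and for *UHRF1* 6421 bases, while for *EZH2* and *EZH1* the distance is 30 and 9 bases.

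*UHRF1* (ENSG00000276043, GRCh38 chromosome 19, 4903080 to 4962154, plus strand), which recognizes hemimethylated DNA behind the replication fork and recruits *DNMT1*, showed the largest change among the members. It measured 14.6, 13.5 and 14.2 FPKM in TPC-1 and 32.2, 32.3 and 32.3 FPKM in *RRM2*-OE-TPC-1. All 3 *RRM2*-OE-TPC-1 libraries were far above every TPC-1 library, and they differed little among themselves. The mean rose from 14.1 ± 0.559 to 32.3 ± 0.0601 FPKM (SD, n = 3 each), 2.29-fold (log2 fold change 1.19, SE 0.0388, limma adjusted p = 1.59e-07). This change was larger in size than that of 92.2% of all genes tested. *UHRF2*, its paralog, measured 3.73 ± 0.0556 and 3.66 ± 0.148 FPKM and was not called (log2 fold change -0.03, limma adjusted p = 0.716).

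*DNMT1* (ENSG00000130816, GRCh38 chromosome 19, 10133345 to 10231286, minus strand), the maintenance methyltransferase, measured 17.7, 17.4 and 17.2 FPKM in TPC-1 and 27.6, 27.01 and 27.2 FPKM in *RRM2*-OE-TPC-1. The groups were far apart compared with the spread inside either of them. The mean rose from 17.4 ± 0.282 to 27.3 ± 0.288 FPKM, 1.56-fold (log2 fold change 0.64, SE 0.0328, limma adjusted p = 1.29e-06), on 2681 to 4532 reads per library. Of its 9796 exon bases, 83 are shared with *S1PR2* on the same strand, which averaged 0.838 FPKM.

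The de novo methyltransferases went the other way. *DNMT3B* (ENSG00000088305, chromosome 20, 32762385 to 32809356, plus strand) measured 12.1, 12.05 and 11.4 FPKM in TPC-1 and 7.52, 8.18 and 7.96 FPKM in *RRM2*-OE-TPC-1. Its lowest TPC-1 library was well above its highest *RRM2*-OE-TPC-1 library. The mean fell from 11.8 ± 0.403 to 7.89 ± 0.339 FPKM, to 0.667 of the TPC-1 level (log2 fold change -0.58, SE 0.0504, limma adjusted p = 2.13e-05). *DNMT3A* (ENSG00000119772, chromosome 2, 25227855 to 25342590, minus strand) was less abundant, at 2.61, 2.38 and 2.51 FPKM in TPC-1 and 1.56, 1.60 and 1.77 FPKM in *RRM2*-OE-TPC-1. Here too the groups did not overlap. The mean fell from 2.50 ± 0.114 to 1.64 ± 0.111 FPKM, to 0.658 of the TPC-1 level (log2 fold change -0.58, SE 0.0907, limma adjusted p = 6.47e-04).

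Within each library the ratio of 2 genes does not depend on how libraries were scaled. The level of *DNMT1* was 6.98 times that of *DNMT3A* in TPC-1 and 16.6 times in *RRM2*-OE-TPC-1, a difference of 1.25 in the mean log2 ratio. Against *DNMT3B* it went from 1.48 times to 3.46 times, a difference of 1.23. The ratio of *DNMT3B* to *DNMT3A* was 4.63, 5.06 and 4.52 in TPC-1 against 4.82, 5.11 and 4.50 in *RRM2*-OE-TPC-1, so that the groups overlapped (difference of log2 ratio 0.021, exact two-sided permutation p = 0.8). Of the summed FPKM of the 3 methyltransferases, *DNMT1* took 54.9% ± 0.366 in TPC-1 against 74.1% ± 0.988 in *RRM2*-OE-TPC-1. *DNMT3B* took 37.2% ± 0.638 and 21.4% ± 0.872, and *DNMT3A* 7.87% ± 0.341 and 4.47% ± 0.283. The sum itself was 31.8 ± 0.683 FPKM in TPC-1 and 36.8 ± 0.158 FPKM in *RRM2*-OE-TPC-1. *UHRF1* was below *DNMT1* in every TPC-1 library, at 0.822, 0.775 and 0.825 of its level, and above it in every *RRM2*-OE-TPC-1 library, at 1.17, 1.20 and 1.18 times. With 3 libraries against 3 the exact permutation test cannot go below p = 0.1, which the ratios of *DNMT1* to either paralog, of *UHRF1* to *DNMT1* and of *UHRF1* to *UHRF2* reached (adjusted p = 0.143 over 10 ratios).

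**Figure D2:**
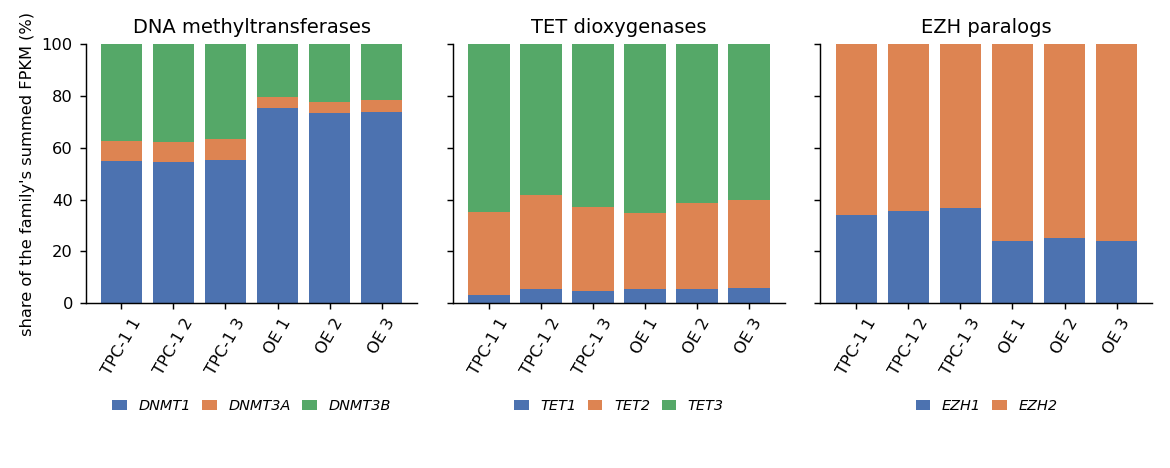
Share of each paralog in the summed FPKM of its family (%), as 1 stacked bar per library, for the DNA methyltransferases, the TET dioxygenases and the EZH paralogs. *DNMT1* takes a mean of 54.9% in the TPC-1 bars and 74.1% in the *RRM2*-OE-TPC-1 bars (OE), *EZH2* goes from 64.6% to 75.6%, and the shares of the 3 TET genes overlap between the groups.

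Both TET genes that were tested fell. *TET3* (ENSG00000187605, chromosome 2, 73986404 to 74108176, plus strand) measured 5.72, 5.16 and 5.93 FPKM in TPC-1 and 4.91, 4.65 and 4.51 FPKM in *RRM2*-OE-TPC-1. The groups did not overlap, but the gap between them was smaller than the spread of TPC-1. The mean fell from 5.60 ± 0.399 to 4.69 ± 0.203 FPKM (log2 fold change -0.25, SE 0.0700, limma adjusted p = 0.0131). *TET2* (ENSG00000168769, chromosome 4, 105145875 to 105279816, plus strand) measured 2.84, 3.19 and 3.04 FPKM and 2.22, 2.49 and 2.52 FPKM. Again every *RRM2*-OE-TPC-1 library was below every TPC-1 library. The mean fell from 3.02 ± 0.176 to 2.41 ± 0.167 FPKM (log2 fold change -0.32, SE 0.0860, limma adjusted p = 0.0112). Of all genes tested, 35.7% changed less than *TET3* and 44.2% less than *TET2*, so that neither change was large among these libraries.

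*TET1* (ENSG00000138336, chromosome 10, 68560656 to 68694482, plus strand), which is best known from pluripotent and germ cells, was the least abundant member. It measured 0.290, 0.506 and 0.432 FPKM in TPC-1 and 0.410, 0.427 and 0.453 FPKM in *RRM2*-OE-TPC-1, on 45 to 79 reads per library. The *RRM2*-OE-TPC-1 values lay inside the range of TPC-1. It was not tested under the filter, and without a filter its log2 fold change was 0.08 (95% interval -0.57 to 0.73, limma adjusted p = 0.855). *TET3* took 62.0% ± 3.32 of the summed TET level in TPC-1 against 62.3% ± 2.54 in *RRM2*-OE-TPC-1, while the sum went from 9.03 ± 0.318 to 7.53 ± 0.0442 FPKM. The log2 ratio of *TET2* to *TET3* differed by -0.07 (exact two-sided permutation p = 0.6) and that of *TET1* to *TET3* by 0.36 (exact p = 0.3), with overlapping groups. Without TPC-1 replicate 1 these differences were -0.14 and 0.12, and without TPC-1 replicate 2 they were 0.02 and 0.59. The log2 ratio of *TET1* to *TET2* was higher in every *RRM2*-OE-TPC-1 library, by 0.44 on average (exact p = 0.1), on the few reads of *TET1*, but by 0.25 without TPC-1 replicate 1, in which *TET1* was lowest.

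The EZH paralogs moved apart. *EZH2* (ENSG00000106462, chromosome 7, 148807383 to 148884321, minus strand) measured 9.41, 10.05 and 8.81 FPKM in TPC-1 and 10.6, 10.96 and 11.1 FPKM in *RRM2*-OE-TPC-1. The groups did not overlap, although TPC-1 replicate 2 came close to *RRM2*-OE-TPC-1 replicate 1. The mean rose from 9.42 ± 0.618 to 10.9 ± 0.233 FPKM, 1.15-fold (log2 fold change 0.21, SE 0.0555, limma adjusted p = 0.0105), and 30.2% of all genes changed less. *EZH1* (ENSG00000108799, chromosome 17, 42700275 to 42745049, minus strand), the paralog typical of resting cells, measured 4.84, 5.55 and 5.08 FPKM in TPC-1 and 3.34, 3.72 and 3.51 FPKM in *RRM2*-OE-TPC-1. All 3 *RRM2*-OE-TPC-1 libraries were below TPC-1. The mean fell from 5.16 ± 0.362 to 3.52 ± 0.191 FPKM, to 0.683 of the TPC-1 level (log2 fold change -0.54, SE 0.0747, limma adjusted p = 3.23e-04).

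The ratio of *EZH2* to *EZH1* was 1.95, 1.81 and 1.73 in TPC-1 against 3.18, 2.95 and 3.15 in *RRM2*-OE-TPC-1. The groups did not overlap, and the mean log2 ratio differed by 0.76 (exact two-sided permutation p = 0.1, the smallest possible). The sum of both genes was 14.6 ± 0.898 FPKM in TPC-1 and 14.4 ± 0.391 FPKM in *RRM2*-OE-TPC-1, and of this sum *EZH2* took 64.6% ± 1.33 and 75.6% ± 0.770.

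*SUZ12* (ENSG00000178691, chromosome 17, 31937018 to 32001045, plus strand), the PRC2 scaffold, measured 14.7, 15.9 and 15.2 FPKM in TPC-1 and 15.7, 14.7 and 15.3 FPKM in *RRM2*-OE-TPC-1. The groups overlapped almost fully. The log2 fold change was -0.0020 with a 95% interval of -0.11 to 0.10 (SE 0.0454, limma adjusted p = 0.971). Its transcribed pseudogene *SUZ12P1* averaged 3.13 FPKM in TPC-1 and 2.04 FPKM in *RRM2*-OE-TPC-1 (log2 fold change -0.59, limma adjusted p = 0.00531). How reads were divided between the gene and this near-identical copy is not given in the sources used here, so that the level of *SUZ12* is uncertain. The pseudogenes *EZH2P1* and *TET1P1* were at 0. The log2 ratio of *SUZ12* to *EZH2* differed by -0.21 (exact permutation p = 0.1).

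In TPC-1 the order of mean levels was *DNMT1*, *SUZ12*, *UHRF1*, *DNMT3B*, *EZH2*, *TET3*, *EZH1*, *TET2*, *DNMT3A* and *TET1*. Of the neighbours in this order, *TET3* and *EZH1* overlapped. In *RRM2*-OE-TPC-1 *UHRF1* came first, *EZH2* stood before *DNMT3B*, and no neighbours overlapped. The order of the members from *TET3* down was the same in both groups.

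**Figure D3:**
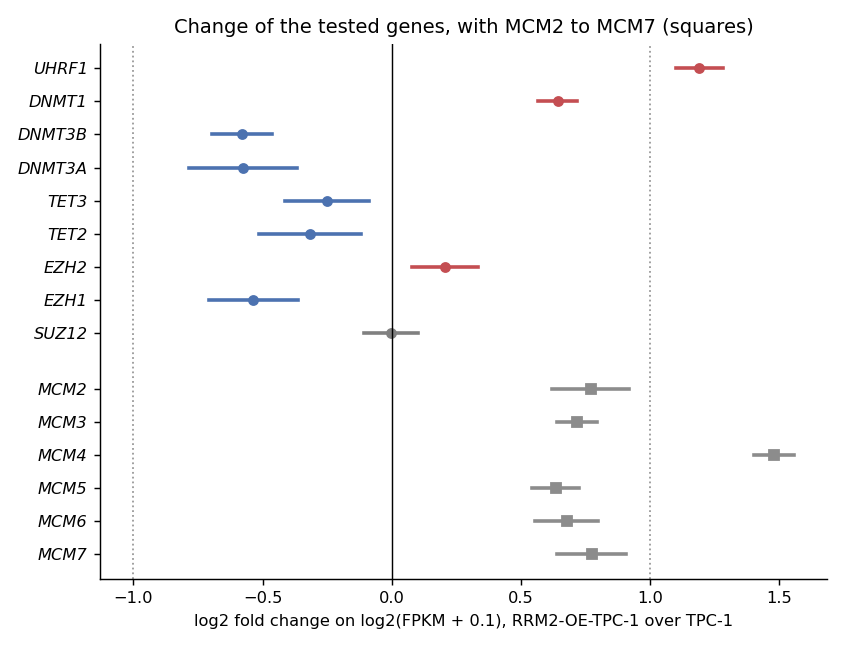
log2 fold change of *RRM2*-OE-TPC-1 over TPC-1 on log2(FPKM + 0.1) for the 9 tested members (circles, red higher, blue lower, grey not called) and *MCM2* to *MCM7* (squares), with lines for 95% intervals and dotted lines at 1 and -1. *UHRF1* at 1.19 is the one member beyond a dotted line, and the interval of *SUZ12* from -0.11 to 0.10 covers 0.

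*DNMT1*, *UHRF1* and *EZH2* are known to be expressed with the cell cycle, so each member was also set against *MCM2* to *MCM7*, the subunits of the replicative helicase, in the same library. All 6 helicase genes were called higher in *RRM2*-OE-TPC-1, with log2 fold changes from 0.63 to 1.48, *MCM4* the highest. Their mean log2 FPKM went from 3.96 to 4.80, a difference of 0.85. Relative to this mean, *UHRF1* was 0.931, 0.859 and 0.931 in TPC-1 against 1.14, 1.16 and 1.17 in *RRM2*-OE-TPC-1. It was the one member whose ratio was higher in *RRM2*-OE-TPC-1, by 0.35 on the log2 scale. *DNMT1* measured 1.13, 1.11 and 1.13 times the helicase mean in TPC-1 and 0.975, 0.971 and 0.985 times in *RRM2*-OE-TPC-1, a difference of -0.20 on the log2 scale. *DNMT1* thus rose in FPKM and was lower relative to the mean of the helicase genes. Its log2 fold change of 0.64 stands beside 0.63 to 0.77 for *MCM2*, *MCM3*, *MCM5*, *MCM6* and *MCM7*. The 1.48 of *MCM4* raises the mean, which was not taken without it. The ratio of *EZH2* differed by -0.64 and that of *SUZ12* by -0.85, whereas those of *DNMT3A*, *DNMT3B*, *EZH1*, *TET2* and *TET3* differed by between -1.45 and -1.10. In none of the 10 members did the groups overlap on this scale, and each reached the smallest exact permutation p of 0.1 (adjusted p = 0.1 over 10 ratios). *SUZ12* and *TET1*, whose groups overlapped in FPKM, are among them. The share of all genes that separate on this scale was not computed, so the count does not set the members apart. Since the helicase genes themselves differed by 0.85, a member with equal FPKM in both groups would be lower here. The part of the helicase genes' change in that of the members was not tested.

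**Figure D4:**
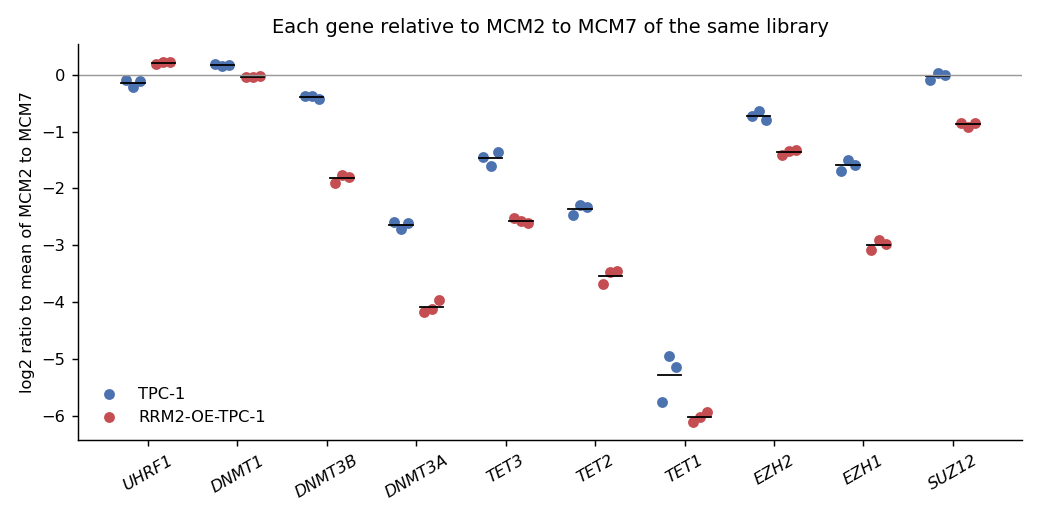
log2 ratio of each member's FPKM to the mean of *MCM2* to *MCM7* in the same library, with TPC-1 in blue, *RRM2*-OE-TPC-1 in red and a bar at each group mean. *UHRF1* moves from just below to just above 0, *DNMT1* from 0.17 to -0.03, and the other 8 members lie lower in *RRM2*-OE-TPC-1.

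Around the members, 123 genes in 6 lists were examined, of which 81 were tested. Of these, 21 were called higher, 37 lower and 23 were not called, so that 71.6% were called against 67.6% of all genes tested, with a median log2 fold change of -0.13. Both thresholds were passed by 6 of the 81, 2 higher and 4 lower, beside 11.5% of all genes. By list, the share called was 80.8% of the tested cofactors and readers, 60% of PRC2 partners and 60.9% of Polycomb repressive complex 1 genes. It was 100% of the enzymes against H3K27 methylation and 72.2% of Polycomb targets. These counts stand beside 34.9% of all genes tested called higher and 32.7% called lower. In what follows *HELLS*, *D2HGDH*, *EED*, *JARID2*, *KDM6B*, *CBX2*, *CBX7*, *KLF2* and *PAX2* are named by rule, from the genes past both thresholds and the largest rise and fall in each list, and every other gene outside the members was named after its values were seen.

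Of the 27 cofactors and readers of DNA methylation, 26 were tested, 9 were higher, 12 were lower and 5 were not called, with a median log2 fold change of -0.06. *HELLS*, a chromatin remodeller needed for maintenance of methylation, rose from 3.69 ± 0.353 to 5.72 ± 0.150 FPKM (log2 fold change 0.62, limma adjusted p = 1.72e-04). *CDCA7*, its partner, rose from 9.54 ± 0.580 to 14.4 ± 0.712 FPKM (log2 fold change 0.59). *TDG*, the glycosylase that removes oxidized methylcytosine, rose from 7.71 ± 0.774 to 11.1 ± 0.498 FPKM (log2 fold change 0.53). *D2HGDH* measured 7.31, 6.56 and 5.79 FPKM in TPC-1 and 2.57, 2.20 and 2.24 FPKM in *RRM2*-OE-TPC-1. The groups of this gene, whose enzyme clears 2-hydroxyglutarate, an inhibitor of TET enzymes, did not overlap (log2 fold change -1.45, SE 0.101, limma adjusted p = 6.37e-06). *IDH1* and *IDH2*, which make the 2-oxoglutarate that TET enzymes use, fell from 34.0 ± 0.351 to 21.7 ± 0.312 FPKM and from 81.4 ± 2.33 to 51.4 ± 2.52 FPKM. On the methyl donor side, *MAT2A*, which makes S-adenosylmethionine, fell from 105 ± 1.11 to 79.5 ± 1.78 FPKM, and *AHCY*, which clears the product of methylation, rose from 48.2 ± 2.18 to 66.7 ± 2.62 FPKM. *MAT2A* shares 558 exon bases with *GGCX* on the other strand, and whether strand was used in counting is not given in the sources used here.

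Of the 11 partners of PRC2, 10 were tested, 4 were higher, 2 were lower and 4 were not called, with a median of 0.11. *EED*, the core subunit that binds methylated H3K27, measured 2.13, 1.91 and 2.08 FPKM in TPC-1 and 3.92, 3.71 and 4.44 FPKM in *RRM2*-OE-TPC-1. The groups did not overlap, and the rise was the largest of the tested partners (log2 fold change 0.94, SE 0.0908, limma adjusted p = 3.74e-05). *RBBP7*, a histone-binding subunit, rose from 14.04 ± 0.267 to 23.4 ± 1.05 FPKM, and *RBBP4*, its paralog, measured 13.6 ± 0.279 and 14.5 ± 0.647 FPKM and was not called. *RBBP7* shares 179 exon bases with *TXLNG* on the other strand, and *RBBP4* shares 1706 with *SYNC*. Of the accessory subunits, *PHF19* rose from 9.41 ± 0.0319 to 16.1 ± 0.481 FPKM (log2 fold change 0.77) and *EPOP* from 2.12 ± 0.397 to 3.19 ± 0.295 FPKM (log2 fold change 0.58). *JARID2* fell from 6.55 ± 0.415 to 4.90 ± 0.258 FPKM (log2 fold change -0.41, limma adjusted p = 8.66e-04) and *PHF1* from 9.18 ± 0.387 to 7.61 ± 0.313 FPKM (log2 fold change -0.27).

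All 4 enzymes that act against H3K27 methylation fell, with a median of -0.62, where 32.7% of all genes were called lower. *KDM6B*, a demethylase, measured 11.4, 10.98 and 11.3 FPKM in TPC-1 and 4.19, 4.43 and 4.69 FPKM in *RRM2*-OE-TPC-1, with a wide gap between the groups (log2 fold change -1.32, SE 0.0552, limma adjusted p = 4.91e-07). *KDM6A*, the other demethylase, fell from 7.22 ± 0.211 to 5.28 ± 0.290 FPKM. The acetyltransferases *CREBBP* and *EP300*, which acetylate the same residue, fell from 17.3 ± 0.830 to 10.9 ± 0.629 FPKM and from 14.8 ± 0.651 to 9.85 ± 0.526 FPKM.

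Of the 23 genes of Polycomb repressive complex 1, which ubiquitinates histone H2A, and of the matching deubiquitinase, all were tested, 4 were higher, 10 were lower and 9 were not called, with a median of -0.14. The subunits that read methylated H3K27 differed among themselves. *CBX2* rose from 1.83 ± 0.158 to 3.47 ± 0.294 FPKM (log2 fold change 0.89, limma adjusted p = 8.90e-05), and *CBX7* fell from 1.79 ± 0.0710 to 0.903 ± 0.0592 FPKM (log2 fold change -0.92, limma adjusted p = 1.18e-04). *CBX7* shares 1338 exon bases with an antisense gene of 0.525 FPKM.

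Genes that DNA methylation keeps silent outside the germline were near or at 0 in both groups. Of the 24 in the list, 13 were at 0 in every library, none passed the filter, and the highest single value was 25 reads, of *MAEL*. The 24 summed to between 0.515 and 0.831 FPKM in TPC-1 and to between 0.257 and 0.383 FPKM in *RRM2*-OE-TPC-1. Of the 34 Polycomb targets, 18 were tested, 4 were higher, 9 were lower and 5 were not called, with a median of -0.32, while 7 were at 0 in every library. *KLF2*, a transcription factor of quiescent cells, rose from 0.990 ± 0.352 to 3.10 ± 0.0689 FPKM (log2 fold change 1.60, limma adjusted p = 1.66e-04). It started low, at 26 reads in the lowest library. The developmental factor *PAX2* fell from 11.9 ± 0.946 to 4.73 ± 0.373 FPKM (log2 fold change -1.31, limma adjusted p = 2.71e-06). *CDKN2A* and *CDKN2B*, the neighbouring cell cycle inhibitor genes, fell from 60.3 ± 4.00 to 42.8 ± 1.83 FPKM and from 9.21 ± 0.720 to 5.74 ± 0.185 FPKM.

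**Figure D5:**
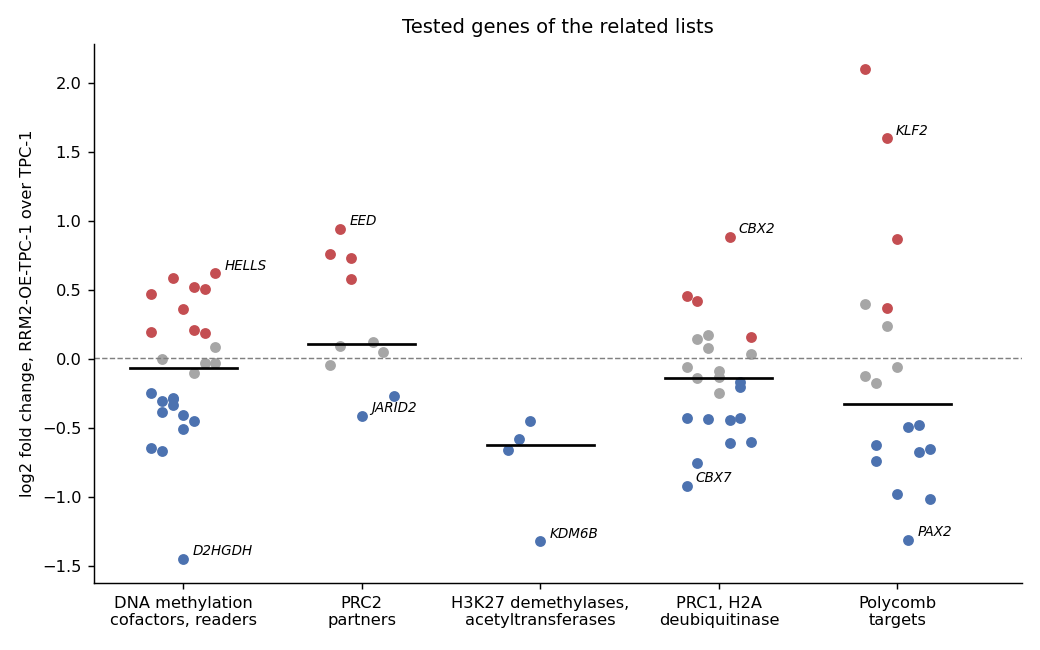
log2 fold change of *RRM2*-OE-TPC-1 over TPC-1 for the 81 tested genes of 5 lists, with called genes in red (higher) or blue (lower), other genes in grey, a bar at each list's median and a dashed line at the median of all genes tested. The 4 genes that act against H3K27 methylation all lie below 0, while *EED* at 0.94 is the highest of the PRC2 partners.

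Neither methylated DNA nor methylated histone was measured, so these values speak of transcripts alone.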

How the data were processed

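Per the labels, ribosomal RNA was removed and linear RNA digested with RNase R before directional libraries were made, whereas the methods describe poly(A) selection. The authors cleaned reads (fastp), mapped them to GRCh38.p14 (HISAT2 2.0.5) and assigned them to genes (featureCounts 1.5.0), and deposited FPKM values. Versions and build are those of the submitters' processing notes, which also name DESeq2 1.20.0. All 58735 identifiers and positions were those of GENCODE 29. Multiplied by gene length, the values came out as whole reads for 100.0% of genes (tolerance 0.01). This gave 14317091 to 17084067 reads on genes per library, of which mitochondrial genes took 4.29% to 5.89%. The depth that values were divided by was 1.03 to 1.05 times these reads in TPC-1 and 0.997 to 1.01 times in *RRM2*-OE-TPC-1. It was thus not the plain total of reads. With values scaled to library totals instead, the log2 fold change of *EZH2* was 0.150 and that of *SUZ12* was -0.0595. Replicates were compared by a chi-square of recovered reads, which was 1.81 to 5.68 per degree of freedom, so that none was a repeat of another within sampling noise.

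The test used limma 3.58.1 in R 4.3.3 (lmFit, eBayes with trend) on log2(FPKM + 0.1), without covariates. Fold changes on this scale understate those of low genes. Ratios within a library used exact two-sided permutation tests. The rest was done in Python 3.11.15 (scipy 1.17.1, numpy 2.4.6, matplotlib 3.10.9 and pandas 2.3.3). The members, lists, tests and naming rule were chosen with earlier results of these data known. The naming rule took all members, *RRM2*, *MCM2* to *MCM7* and, from the lists, the genes past both thresholds and the largest called rise and fall in each. Some genes that this rule covers are not reported here. The alternatives were other pseudocounts, filters and scalings, the replicate number as a block, and each library left out. The columns of the table that do not hold FPKM annotate genes.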

Additional observations from a re-analysis of the deposited data

How the results depend on the processing

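In each of 15 alternatives, 3 members were called higher, 5 lower and 1 past both thresholds. Over these, the log2 fold change of *DNMT1* ranged from 0.585 to 0.655, *UHRF1* from 1.13 to 1.22, *DNMT3B* from -0.641 to -0.529, *DNMT3A* from -0.661 to -0.405, *EZH1* from -0.603 to -0.444, *EZH2* from 0.150 to 0.254, *TET2* from -0.382 to -0.239 and *TET3* from -0.314 to -0.208. The largest limma adjusted p was 0.0487 for *TET3*, 0.0397 for *TET2* and 0.0387 for *EZH2*. *SUZ12*, not called in any, changed sign with TMM factors (0.000817) and in the range without single libraries, from -0.0305 to 0.0286. With the replicate number as a block the log2 fold change of *UHRF1* was 1.19 and the counts of members were 3, 5 and 1. The numbers do not pair the libraries, since the deviations of same-numbered libraries correlated at -0.011, -0.0060 and -0.055. In the related lists, 19 to 22 genes were higher, 34 to 41 lower and 5 to 8 past both thresholds. The median of all genes lay between -0.048 and 0.030. Weighting of recovered reads with voom and the FPKM minimum alone were chosen after seeing the data. The planned edgeR and DESeq2 fits on recovered reads were not run, and voom was the one fit on these reads. With 1 library left out at a time, the differences of log2 ratios with overlapping groups ranged from 0.116 to 0.591 for *TET1* to *TET3*, from -0.135 to 0.0235 for *TET2* to *TET3* and from -0.0238 to 0.0695 for *DNMT3B* to *DNMT3A*. Of the others, *TET1* to *TET2* ranged from 0.251 to 0.567 and *EZH2* to *EZH1* from 0.720 to 0.803. Depth limits *TET1*, at 45 to 79 reads, and the germline genes, at 25 reads or fewer.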
